A study of Mus musculus with 6 samples.

Results

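The genes described here encode the machinery that copies DNA in S phase, together with the enzymes that supply its nucleotides and the cyclins that start it. They are 43 genes listed by function, not by their values, in 9 roles: origin licensing and its control (5), the MCM helicase core (6), helicase activation (5), polymerases and primase (8), the clamp, clamp loader and single-strand binding proteins (9), lagging strand maturation (2), nucleotide supply (3), G1/S cyclins (2), and chromatin assembly with maintenance of DNA methylation (3). All 43 were found among the 24346 gene symbols of the files, and all 43 passed a filter of at least 1 FPKM on average over the libraries, which left 14766 genes. FPKM, the unit of every level below, is the number of fragments scaled for transcript length and library size.

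The tissue was the nasomaxillary complex, the skeletal and soft tissue of the nose and upper jaw, from mouse embryos at E17.5. The mutant group (3 libraries) carried floxed Pth1r alleles (Pth1r f/f) and Wnt1-Cre, a transgene driven by the Wnt1 promoter that recombines floxed alleles in neural crest cells and their descendants. The control group (3 libraries) carried the same Pth1r f/f alleles and no Cre, so an effect of the transgene and the loss of Pth1r, a receptor for parathyroid hormone and its relative PTHrP, cannot be told apart. Neither group was treated. Nothing in the labels ties a library to 1 embryo or litter, and p-values describe the spread between these libraries, which may be technical. Tissue of this region also holds epithelium, muscle, vessels and blood cells, which do not come from the crest. Pth1r measured 77.3, 78.4 and 69.7 FPKM in mutant replicates 1 to 3, against 75.2, 55.2 and 73.5 FPKM in control replicates 1 to 3. These ranges overlapped, and a value for the whole gene in a mixed tissue does not check the genotype.

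Cells license replication origins in G1, when the origin recognition complex, Cdc6 and Cdt1 load rings of Mcm2 to Mcm7 onto DNA. At the start of S phase, cyclin E with its kinase and other factors turn each ring into an active helicase with Cdc45 and the GINS complex, and primase, polymerases, the Pcna clamp, ligase and nuclease follow. Most of these genes are transcribed in a burst at the G1/S boundary by E2F factors, so tissues with many cycling cells usually have more of these RNAs. In a bulk sample, fewer cycling cells and less of these RNAs per cell cannot be told apart.

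The promoters are shown first, because a shared regulatory sequence is what the list could hold in common beyond function. RefSeq windows of 300 bases (250 before to 50 after the start, GRCm38.p6) were matched for 35 of the 43 genes. An E2F-type core, searched on both strands under the spelling TTCCCGC, or the spelling TTGGCGC, or the spelling TTCGCGC, or the spelling TTGCCGC, with overlapping matches counted separately, was present in a window of 24 of the 35 (68.6%). It was present in 18.5% of the 11120 tested genes with a window and in 10.9% of all 27025 genes of the table. More than 1 match occurred in 11 of the 35 (31.4%), against 2.56% of tested genes. The median GC content of the windows was 61.3% for the replication genes and 60.3% for tested genes. Below, capitals mark E2F-type cores in 3 windows that hold them, chosen as examples from the helicase, licensing and chromatin roles. The Ccne1 window, from the gene with the smallest p of the list, has none of the 4 spellings. Mcm6 lies at chr1:128359656-128359955, minus strand, Cdt1 at chr8:122567765-122568064, plus strand, Uhrf1 at chr17:56303087-56303386, plus strand (the first of its 2 windows) and Ccne1 at chr7:38107441-38107740, minus strand, and each sequence reads along the gene's own strand.
Mcm6: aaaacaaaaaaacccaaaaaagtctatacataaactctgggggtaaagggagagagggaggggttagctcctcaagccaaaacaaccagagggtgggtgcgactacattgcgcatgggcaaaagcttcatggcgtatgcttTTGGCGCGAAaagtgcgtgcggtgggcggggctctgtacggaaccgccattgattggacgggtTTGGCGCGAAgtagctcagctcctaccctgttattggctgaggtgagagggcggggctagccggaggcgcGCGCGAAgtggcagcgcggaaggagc
Cdt1: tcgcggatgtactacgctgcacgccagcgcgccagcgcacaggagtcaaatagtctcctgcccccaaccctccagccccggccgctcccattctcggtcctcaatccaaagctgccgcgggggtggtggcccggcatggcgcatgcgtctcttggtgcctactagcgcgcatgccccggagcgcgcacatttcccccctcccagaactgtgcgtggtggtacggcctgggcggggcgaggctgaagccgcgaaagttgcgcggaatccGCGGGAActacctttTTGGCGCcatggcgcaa
Uhrf1: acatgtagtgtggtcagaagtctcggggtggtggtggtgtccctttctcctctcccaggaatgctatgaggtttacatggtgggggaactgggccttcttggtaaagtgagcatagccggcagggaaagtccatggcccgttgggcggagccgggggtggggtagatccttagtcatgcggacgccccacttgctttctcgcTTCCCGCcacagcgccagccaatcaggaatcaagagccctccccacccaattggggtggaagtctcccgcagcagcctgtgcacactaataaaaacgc
Ccne1: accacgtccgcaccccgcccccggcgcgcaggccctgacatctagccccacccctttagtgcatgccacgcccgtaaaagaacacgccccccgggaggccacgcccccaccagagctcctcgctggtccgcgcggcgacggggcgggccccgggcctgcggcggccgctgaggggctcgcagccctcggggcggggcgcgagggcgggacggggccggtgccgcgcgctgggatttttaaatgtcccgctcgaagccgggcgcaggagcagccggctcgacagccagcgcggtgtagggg

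Mcm6 had 5 matches, in 2 pairs of overlapping cores on opposite strands and 1 single core. The 2 cores of Cdt1 began at positions 19 and 34, counting the start as 1. Shares of 2 other motifs are given for the same windows and for those of mitosis genes. The CCAAT box (CCAAT, both strands) was in a window of 23 of 35 replication genes (65.7%), 15 of 17 mitosis genes (88.2%) and 42.1% of tested genes. The cell cycle homology region, an element of genes expressed late in the cell cycle and searched on both strands under the spelling TTTGAA or the spelling TTCGAA, was in 7 of 35 replication genes, 13 of 17 mitosis genes (76.5%) and 16.2% of tested genes. Only 3 of the 17 mitosis genes (17.6%) had an E2F-type core. Top2a, a topoisomerase of dividing cells at chr11:99024140-99024439, minus strand, is printed for contrast with that late element in capitals. Nusap1, the other mitosis gene that passed the test described below, had 0 matches of each motif in its window.
Top2a: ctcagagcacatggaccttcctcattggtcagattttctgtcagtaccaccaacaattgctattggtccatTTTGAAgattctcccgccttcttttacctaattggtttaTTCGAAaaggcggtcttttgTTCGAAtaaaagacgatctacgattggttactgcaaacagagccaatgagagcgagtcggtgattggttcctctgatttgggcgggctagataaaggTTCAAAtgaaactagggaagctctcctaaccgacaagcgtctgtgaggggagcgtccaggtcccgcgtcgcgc
A match is a run of letters in a window and not evidence of binding, and its absence says only that these letters are not in that window.

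**Figure D1:**
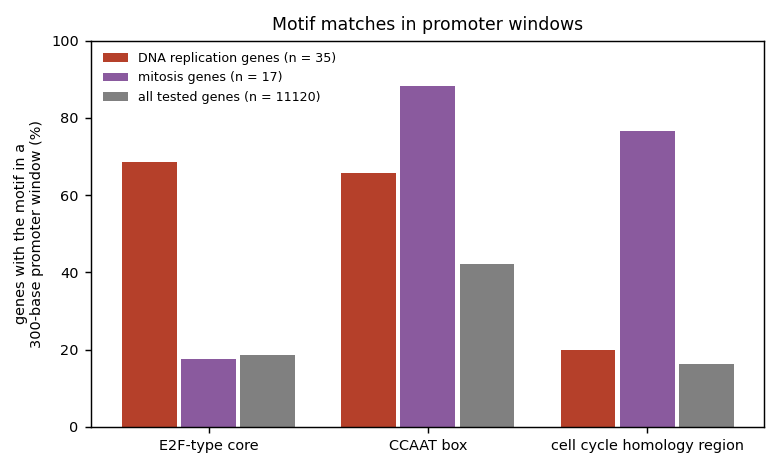
Share of genes (%, vertical axis) with at least 1 match of each motif in a promoter window, for replication genes (35 with a window), mitosis genes (17) and all tested genes (11120). The E2F-type core was in 68.6% of replication genes and 17.6% of mitosis genes, and the cell cycle homology region in 7 of 35 replication genes and 76.5% of mitosis genes.

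Mutant libraries had slightly less of most of these RNAs on average, and no single gene passed the test. Of the 43 genes, 42 had a negative log2 change, against 50.8% of all tested genes, and the median change was -0.10 on the log2(FPKM + 1) scale, against -0.0020 over all tested genes. The mutant mean was below the control mean by a median of 7.43% over the 43 genes. No gene of the list was called by limma at an adjusted p under 0.05, where 0.264% of all tested genes (39 of 14766) were, and the smallest adjusted p in the list was 0.163, for Ccne1. At an unadjusted limma p under 0.05 there were 11 of 43, all lower in mutant, against 5.96% of tested genes that were lower at that level. In 15 of 43 all 3 mutant values lay below all 3 control values, which held for 9.16% of tested genes, and in 0 of 43 they lay above. All genes of a library share its tissue piece and its RNA, so these shares describe the list and are not a test of it. The quartiles of the change were -0.16 and -0.055 in the list, against -0.074 and 0.071 over all tested genes.

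Added up, the 43 genes came to 812, 829 and 809 FPKM in mutant replicates 1 to 3, against 882, 896 and 877 FPKM in control replicates 1 to 3. The 3 mutant sums were lower than the 3 control sums and the groups did not overlap, with means of 817 ± 11.0 FPKM in mutant and 885 ± 9.98 FPKM in control (SD, n = 3 each). That is 7.73% less in mutant, while the sum over all tested genes was 2.18% less. The sums over all tested genes overlapped, with 513203 to 524014 FPKM in mutant and 513105 to 544868 FPKM in control libraries. On the log2 scale the median deviation of the 43 genes from their control means was -0.11, -0.071 and -0.13 in mutant replicates 1 to 3, against -0.012, 0.017 and -0.0055 in control replicates 1 to 3. Every mutant library lay below every control library, and the median change of the list stayed between -0.13 and -0.092 when any 1 library was left out. The lowest of a gene's 6 values was in a mutant library for 35 of the 43 genes, 13 in replicate 1, 5 in replicate 2 and 17 in replicate 3. The highest value was in a control library for 40. For the lowest and the highest value, the shares of all tested genes were not computed. Mutant replicate 3 also had the lowest estimated depth, about 8.32e+06 fragments. All 3 mutant values lay below the control mean in 26 of the 43 genes, against 22.8% of tested genes.

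**Figure D2:**
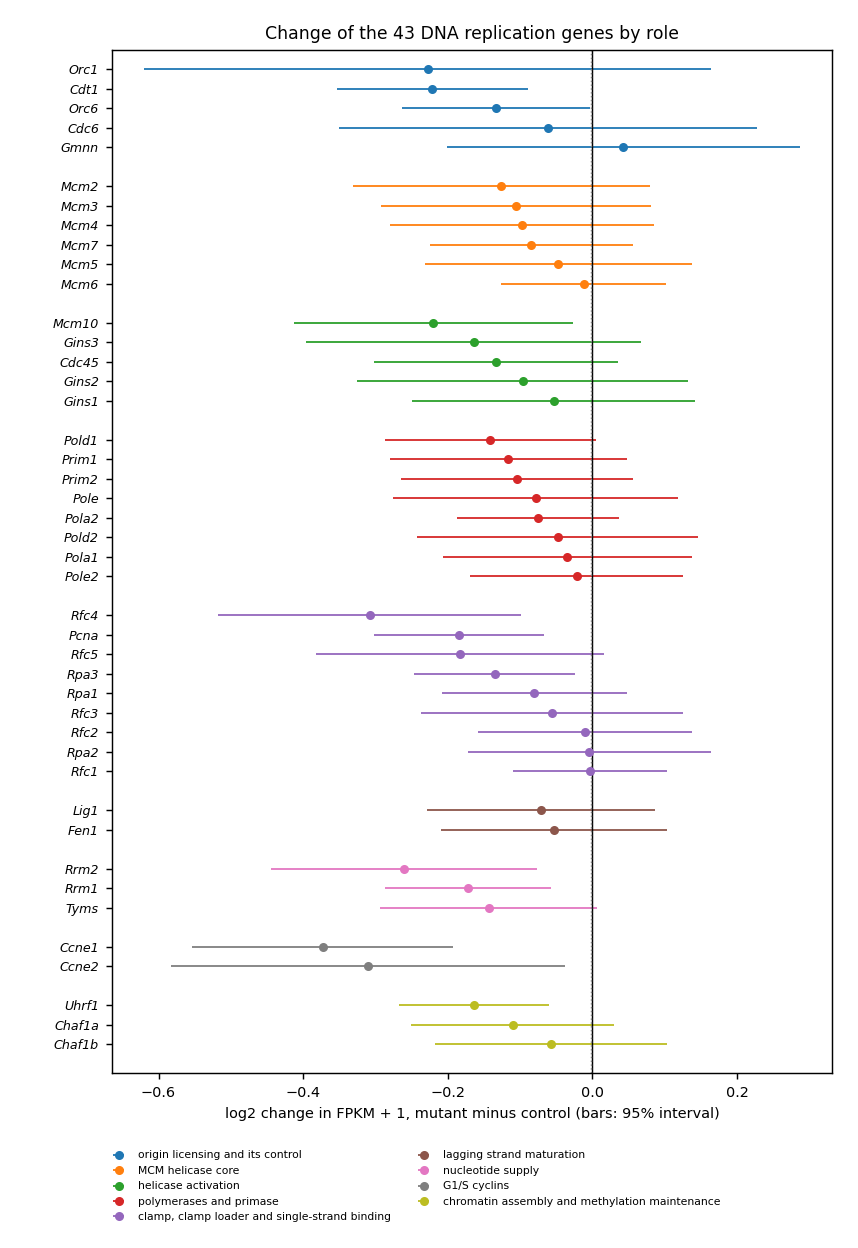
Log2 change in FPKM + 1, mutant minus control (horizontal axis), for each of the 43 genes, coloured by role. Points are limma estimates from 3 libraries a group, bars are 95% intervals, and the dotted line is the median of all tested genes. All points but Gmnn lie left of 0, and 32 of the 43 intervals reach 0.

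The precision of the estimates sets what can be said of single genes. The 95% interval of a gene's log2 change had a median half-width of 0.17 over the 43 genes (0.10 to 0.39), and the smallest absolute change among the 39 genes called was 0.33. The list's median change was smaller than any change that was called, and the intervals of 32 genes reach 0 without showing that the groups were alike. The replicate SD of a gene, pooled over the groups on the log2 scale, had a median of 0.082 in the list and 0.097 over all tested genes. In 24 of 43 genes the absolute change was larger than the gene's own pooled SD, and the share of all tested genes was not computed.

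Levels per length spanned a wide range. Averaged over all 6 libraries, Pcna stood highest at 97.3 FPKM, followed by Rfc2 at 50.8 FPKM and Mcm6 at 41.0 FPKM. At the low end were Cdc6 at 3.03 FPKM, Ccne2 at 2.28 FPKM and Orc1 at 1.46 FPKM, the genes with the widest intervals. In all, 16 genes averaged at least 20 FPKM and 5 averaged less than 5 FPKM.

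Markers of several cell types also differed between the libraries. All 12 chondrocyte markers had negative changes and 7 fell by the limma test, against 0.264% of tested genes called, and their summed levels, 489 to 832 FPKM in mutant and 1642 to 1991 FPKM in control libraries, did not overlap. Markers of skin and oral epithelium (10 of 10 positive, 0 called) summed to 1982 to 2175 FPKM in mutant and 773 to 1769 FPKM in control libraries, also without overlap. Muscle markers (12 of 12 positive, 0 called) summed to 491 to 1288 FPKM in mutant and 331 to 562 FPKM in control libraries. Erythroid markers, 10 of 12 in the files and 5 of them tested (4 positive, 0 called), summed to 723 to 1210.4 FPKM in mutant and 596 to 1444 FPKM in control libraries, with Hba-a2 near 0 throughout. Leukocyte markers (10 of 10 positive, 0 called) summed to 300.04 to 332 FPKM in mutant and 260.3 to 276 FPKM in control libraries, and endothelial markers (8 of 8 positive, 0 called) to 205 to 236 FPKM in mutant and 189 to 209.8 FPKM in control libraries. Osteoblast markers (9 of 10 negative, 0 called) summed to 5249 to 6175 FPKM in mutant and 5849.6 to 8151 FPKM in control libraries, neuron markers (6 of 10 negative, 0 called) to 379 to 505 FPKM in mutant and 432 to 554 FPKM in control libraries and olfactory progenitor markers (5 of 7 negative, 0 called) to 243 to 287 FPKM in mutant and 248.8 to 301 FPKM in control libraries. No marker was at 0 in every library, and markers of cartilage and bone were present in all 6. Xist and Y-linked genes marked 1 mutant and 3 control libraries as female and 2 mutant libraries as male. With sex as a covariate, which compares the female mutant library with the 3 controls, 35 of 43 replication genes were negative with a median change of -0.11. With the muscle markers as a covariate 34 were negative, with a median of -0.15, and with the erythroid markers 41, with a median of -0.11. The erythroid covariate was a mean over the 5 tested markers, of which Hbb-bs measured 0 FPKM in mutant replicate 2. In the other libraries Hbb-bs measured 18.4 to 42.3 FPKM. The part of the other cell types in the replication values was not tested.

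The G1/S cyclins had the largest estimated changes on the log2(FPKM + 1) scale, and neither passed the test. Ccne1, at chr7:38097984-38107534, minus strand (GRCm38), encodes cyclin E1, which activates Cdk2 for entry into S phase. It measured 7.84, 7.76 and 6.83 FPKM in mutant replicates 1 to 3, against 9.58, 9.58 and 10.8 FPKM in control replicates 1 to 3. All mutant values were below all control values, with means of 7.48 ± 0.558 FPKM in mutant and 9.98 ± 0.685 FPKM in control (SD, n = 3 each), and the log2 change was -0.37 ± 0.077 (SE, limma adjusted p = 0.163), with a 95% interval of -0.55 to -0.19. Ccne2, its paralog cyclin E2, measured 1.76, 2.02 and 2.01 FPKM in mutant replicates 1 to 3, against 2.72, 2.18 and 3.03 FPKM in control replicates 1 to 3. It was lower in every mutant library than in any control library, although control replicate 2 came close, and its change was -0.31 ± 0.12 (SE, limma adjusted p = 0.388). The mutant mean was 25.1% below the control mean for Ccne1 and 27.1% below for Ccne2. The pair differed from each other in level, Ccne1 being the more abundant per length in every library.

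The 3 genes of nucleotide supply had negative changes, and their groups did not overlap, as in 9.16% of all tested genes. Rrm1 and Rrm2 encode the large and small subunits of ribonucleotide reductase, which makes deoxyribonucleotides, and Tyms encodes thymidylate synthase, which makes the precursor of dTTP. Rrm2 measured 20.6, 23.2 and 25.2 FPKM in mutant replicates 1 to 3, against 26.1, 28.5 and 28.4 FPKM in control replicates 1 to 3. Its mutant libraries spread more than its control libraries, with replicate 1 the lowest and replicate 3 nearest to control, and the change was -0.26 ± 0.078 (SE, limma adjusted p = 0.302). Rrm1 measured 25.1, 24.7 and 26.5 FPKM in mutant replicates 1 to 3, against 28.0, 29.1 and 29.1 FPKM in control replicates 1 to 3, a tighter separation at a change of -0.17 ± 0.049 (SE, limma adjusted p = 0.285). Tyms averaged 11.9 ± 0.820 FPKM in mutant and 13.2 ± 0.331 FPKM in control (SD, n = 3 each), with a change of -0.14 ± 0.064 (SE, limma adjusted p = 0.455). Fragments of Tyms and of Pcna may be shared with annotated pseudogenes.

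Of the licensing genes, Cdt1 and Orc6 had mutant values entirely below control, as in 9.16% of all tested genes, and the other 3 did not. Cdt1 brings the MCM ring to the origin and is destroyed in S phase. It measured 13.3, 14.7 and 14.6 FPKM in mutant replicates 1 to 3, against 16.6, 16.98 and 16.7 FPKM in control replicates 1 to 3. The control libraries lay within a narrow range and each mutant library was under it, and the change was -0.22 ± 0.056 (SE, limma adjusted p = 0.247). Orc6, a subunit of the origin recognition complex, measured 18.1, 19.5 and 18.9 FPKM in mutant replicates 1 to 3, against 19.97, 20.6 and 21.7 FPKM in control replicates 1 to 3. Its groups were separated by a small gap, and its change was -0.13 ± 0.055 (SE, limma adjusted p = 0.430). Orc1, the ATPase subunit of that complex, was the least abundant of the 43 genes, with 1.27 ± 0.350 FPKM in mutant and 1.66 ± 0.407 FPKM in control (SD, n = 3 each), and its groups overlapped (log2 change -0.23, interval -0.62 to 0.16). Cdc6, the loading factor, had a change of -0.061 with an interval of -0.35 to 0.23. Gmnn encodes geminin, the inhibitor that blocks Cdt1 after replication has begun, and was the 1 gene with a positive change. It measured 14.8, 16.7 and 17.9 FPKM in mutant replicates 1 to 3, against 13.9, 16.2 and 17.8 FPKM in control replicates 1 to 3. The groups overlapped almost fully, and the change was 0.042 ± 0.10 (SE, limma adjusted p = 0.921).

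**Figure D3:**
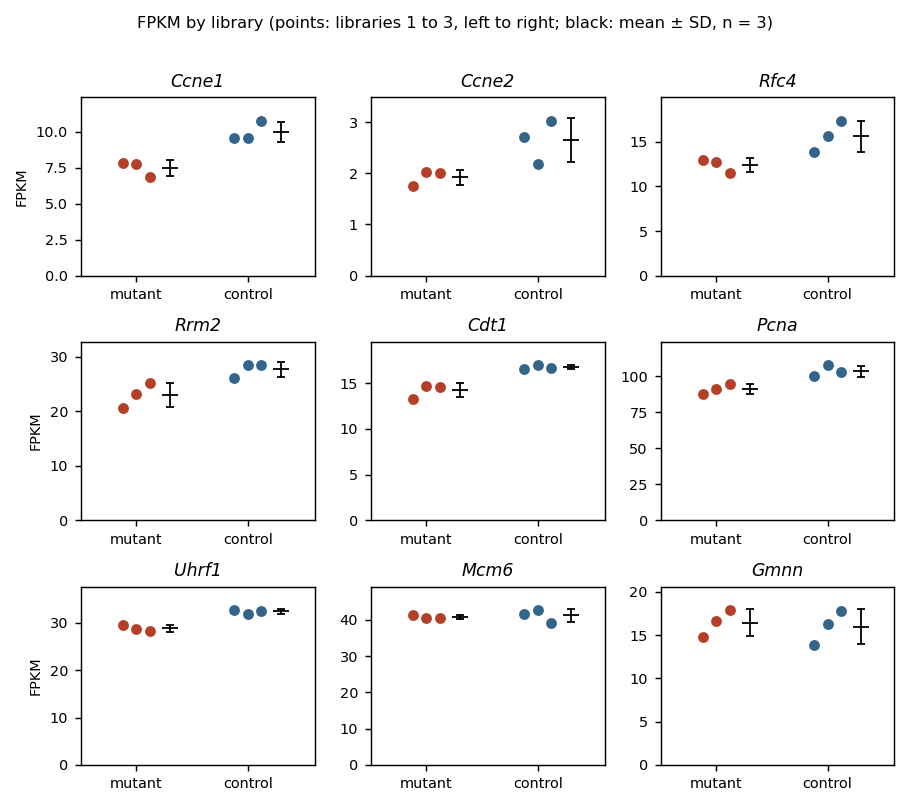
FPKM (vertical axes, from 0) in each library for 9 genes, mutant on the left and control on the right of each panel. Coloured points are replicates 1 to 3 from left to right and black marks are means ± SD (n = 3). In Ccne1, Ccne2, Rfc4, Rrm2, Cdt1, Pcna and Uhrf1 the mutant points lie below every control point, and in Mcm6 and Gmnn the groups overlap.

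The 6 genes of the MCM ring, the core of the replicative helicase, had small negative changes with none past an unadjusted limma p of 0.05. Their changes ran from -0.13 for Mcm2 to -0.012 for Mcm6, with -0.11 for Mcm3, -0.098 for Mcm4, -0.084 for Mcm7 and -0.047 for Mcm5. Mcm2 measured 23.3, 25.4 and 20.5 FPKM in mutant replicates 1 to 3, against 24.5, 27.3 and 23.8 FPKM in control replicates 1 to 3. Its groups overlapped, and the change was -0.13 ± 0.087 (SE, limma adjusted p = 0.648). Mcm7 measured 38.4, 33.7 and 38.1 FPKM in mutant replicates 1 to 3, against 39.5, 38.8 and 38.5 FPKM in control replicates 1 to 3. Here the separation rested on a narrow gap, since mutant replicates 1 and 3 lay just under the lowest control, and the change was -0.084 ± 0.060 (SE, limma adjusted p = 0.658). Mcm6, whose promoter window held the most E2F-type cores of the 4 printed, averaged 40.8 ± 0.537 FPKM in mutant and 41.2 ± 1.82 FPKM in control (SD, n = 3 each), with an interval of -0.13 to 0.10. Levels of the subunits, per length, formed 2 tiers in all 6 libraries: Mcm6 (39.2 to 42.7 FPKM) and Mcm7 (33.7 to 39.5 FPKM) overlapped each other, and Mcm2, Mcm3, Mcm4 and Mcm5 all lay between 19.7 and 30.3 FPKM.

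All 5 genes of helicase activation had negative changes, against 50.8% of all tested genes. Of these 5, 1 gene, Mcm10, had an unadjusted limma p under 0.05, against 5.96% of tested genes that were lower at that level. Mcm10, which helps open the loaded helicase, measured 4.04, 4.26 and 3.66 FPKM in mutant replicates 1 to 3, against 4.96, 4.99 and 4.46 FPKM in control replicates 1 to 3. Its groups did not overlap, and its change was -0.22 ± 0.082 (SE, limma adjusted p = 0.388). Cdc45, which joins the ring to form the active helicase, measured 8.02, 9.54 and 8.47 FPKM in mutant replicates 1 to 3, against 9.69, 9.66 and 9.43 FPKM in control replicates 1 to 3. Mutant replicate 2 lay within the control range, and the change was -0.13 ± 0.072 (SE, limma adjusted p = 0.536). Of the GINS subunits, the third partner of that helicase, Gins3 had a change of -0.16 (interval -0.40 to 0.068), Gins2 of -0.097 (-0.33 to 0.13) and Gins1 of -0.054 (-0.25 to 0.14), all with overlapping groups.

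All 8 genes of the polymerases and primase had negative changes, with a median of -0.077 and 0 past an unadjusted limma p of 0.05. Pold1, the catalytic subunit of polymerase delta, measured 17.2, 16.3 and 16.1 FPKM in mutant replicates 1 to 3, against 19.6, 18.3 and 17.2 FPKM in control replicates 1 to 3. Mutant replicate 1 stood at the level of control replicate 3, and the change was -0.14 ± 0.062 (SE, limma adjusted p = 0.450). Prim1, the catalytic subunit of primase, measured 16.9, 17.1 and 19.0 FPKM in mutant replicates 1 to 3, against 17.9, 20.3 and 19.6 FPKM in control replicates 1 to 3. The groups overlapped through mutant replicate 3, and the change was -0.12 ± 0.070 (SE, limma adjusted p = 0.584). The regulatory primase subunit Prim2 had a change of -0.10, the polymerase alpha subunits Pola2 and Pola1 changes of -0.076 and -0.035, the polymerase epsilon subunits Pole and Pole2 changes of -0.079 and -0.022, and the polymerase delta subunit Pold2 a change of -0.048. Among these 6 only Pola2 had mutant values entirely below control, as in 9.16% of all tested genes, and the groups of the others overlapped. Pola1 is the 1 gene of the list on the X chromosome, and it measured 5.47 ± 0.0434 FPKM in mutant and 5.64 ± 0.445 FPKM in control (SD, n = 3 each).

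All 9 genes of the clamp, clamp loader and RPA had negative changes, and 3 of them had an unadjusted limma p under 0.05, against 5.96% of tested genes. Pcna, the sliding clamp that holds polymerases on DNA, was the most abundant of the 43 genes per length. It measured 87.5, 91.3 and 94.3 FPKM in mutant replicates 1 to 3, against 99.9, 108 and 103 FPKM in control replicates 1 to 3. The 3 mutant values lay below the 3 control values, with means of 91.0 ± 3.41 FPKM in mutant and 104 ± 3.86 FPKM in control (SD, n = 3 each) and a change of -0.18 ± 0.050 (SE, limma adjusted p = 0.269). Among the 5 clamp loader subunits Rfc4 had the largest difference, with 12.9, 12.8 and 11.5 FPKM in mutant replicates 1 to 3, against 13.9, 15.6 and 17.4 FPKM in control replicates 1 to 3. Its mutant libraries all lay below its control libraries, which were themselves spread, and the change was -0.31 ± 0.089 (SE, limma adjusted p = 0.294). Rfc5 had a change of -0.18, Rfc3 of -0.056, Rfc2 of -0.011 and Rfc1, the large subunit, of -0.0036, all 4 with overlapping groups. For Rfc1 the interval of -0.11 to 0.10 was among the narrowest, and its means were 18.2 ± 0.0521 FPKM in mutant and 18.2 ± 0.346 FPKM in control (SD, n = 3 each). Of the subunits of RPA, the single-strand binding protein, Rpa3 had a change of -0.14 ± 0.047 (SE, limma adjusted p = 0.362) with separated groups, Rpa1 one of -0.080 and Rpa2 one of -0.0042, both with overlapping groups.

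The ligase and nuclease of the lagging strand had small changes. Lig1, which seals Okazaki fragments, measured 27.4, 26.4 and 23.8 FPKM in mutant replicates 1 to 3, against 27.9, 25.7 and 28.0 FPKM in control replicates 1 to 3. Fen1, the flap nuclease that trims them, measured 14.98, 14.3 and 15.5 FPKM in mutant replicates 1 to 3, against 15.4, 16.8 and 14.5 FPKM in control replicates 1 to 3. Both pairs of groups overlapped, with changes of -0.071 ± 0.067 (SE, limma adjusted p = 0.752) and -0.053 ± 0.067 (SE, limma adjusted p = 0.820). Among the factors that rebuild chromatin behind the fork, Uhrf1, which recruits the maintenance DNA methyltransferase Dnmt1 to hemimethylated DNA, measured 29.6, 28.7 and 28.2 FPKM in mutant replicates 1 to 3, against 32.8, 31.9 and 32.6 FPKM in control replicates 1 to 3. Both groups were tight and did not overlap, and the change was -0.16 ± 0.044 (SE, limma adjusted p = 0.266). Chaf1a, the large subunit of chromatin assembly factor 1, measured 17.1, 16.3 and 15.1 FPKM in mutant replicates 1 to 3, against 17.2, 17.998 and 17.4 FPKM in control replicates 1 to 3. Mutant replicate 1 lay only just below control replicate 1, and the change was -0.11 ± 0.060 (SE, limma adjusted p = 0.538). Chaf1b, the middle subunit, had a change of -0.057 with overlapping groups.

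The wider pathway was described through lists of other genes. Of 34 other replication genes, among them the remaining origin, polymerase and fork protection factors, 30 had negative changes, 0 were called, 8 were lower at an unadjusted limma p under 0.05 and 10 had mutant values entirely below control. Over all tested genes these shares were 50.8% negative, 0.264% called, 5.96% lower at an unadjusted p under 0.05 and 9.16% entirely below control. Their median change was -0.11, and their summed levels were 503 to 517 FPKM in mutant and 553 to 554 FPKM in control libraries. Dbf4, the activating subunit of the Cdc7 kinase that fires origins, measured 10.6, 11.4 and 11.1 FPKM in mutant replicates 1 to 3, against 12.5, 13.3 and 13.6 FPKM in control replicates 1 to 3, without overlap, and its change was -0.23 ± 0.057 (SE, limma adjusted p = 0.238). Asf1b, a histone chaperone of dividing cells, averaged 9.23 ± 1.14 FPKM in mutant and 12.5 ± 1.22 FPKM in control (SD, n = 3 each), with a change of -0.40 ± 0.10 (SE, limma adjusted p = 0.254). Of 18 other genes of nucleotide supply, 16 had negative changes, against 50.8% of all tested genes, and 0 were called, with a median of -0.093. Tk1, the thymidine kinase of S phase, had a change of -0.36 ± 0.089 (SE, limma adjusted p = 0.244), and Dut, which removes dUTP, one of -0.32 ± 0.094 (SE, limma adjusted p = 0.298). The 17 tested G1/S regulators (Cdk6 was below the filter) were mixed, with 12 negative and 5 positive changes and 0 called. Ccna2, the cyclin of S phase and later, averaged 29.6 ± 1.09 FPKM in mutant and 36.3 ± 1.59 FPKM in control (SD, n = 3 each), with a change of -0.29 ± 0.053 (SE, limma adjusted p = 0.127). Cdkn2c, an inhibitor of Cdk4 and Cdk6, averaged 8.62 ± 1.11 FPKM in mutant and 11.9 ± 0.386 FPKM in control (SD, n = 3 each), with a change of -0.43 ± 0.091 (SE, limma adjusted p = 0.172). E2f1, the activator of many of these genes, measured 10.1, 10.8 and 9.58 FPKM in mutant replicates 1 to 3, against 14.9, 13.4 and 14.6 FPKM in control replicates 1 to 3, with a change of -0.46 ± 0.068 (SE, limma adjusted p = 0.0659).

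**Figure D4:**
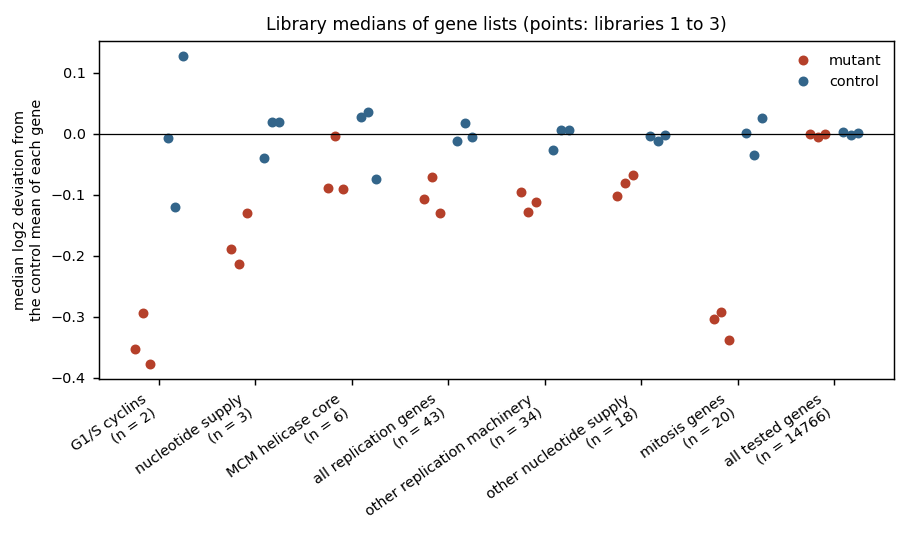
Median log2 deviation from each gene's control mean (vertical axis) by library, for lists of genes with their number tested, mutant left of control. For all 43 replication genes the mutant libraries lie between -0.13 and -0.071 and the control libraries between -0.012 and 0.017, and for mitosis genes the mutant libraries lie between -0.34 and -0.29.

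Genes of mitosis, which act later in the cell cycle, were set beside the list. Over 20 mitosis genes the median deviation was -0.30, -0.29 and -0.34 in mutant replicates 1 to 3, against 0.0010, -0.034 and 0.026 in control replicates 1 to 3. All 20 changes were negative with a median of -0.33, 18 were lower at an unadjusted limma p under 0.05, and 2 passed the test. Over all tested genes 50.8% were negative, 5.96% were lower at that unadjusted p and 0.264% were called. Top2a fell, with a log2 change of -0.33 ± 0.043 (SE, limma adjusted p = 0.0439), and Nusap1, a spindle protein, also fell, with one of -0.42 ± 0.052 (SE, limma adjusted p = 0.0334). On the log2(FPKM + 1) scale, only Ccne1 of the 43 replication genes had a change below the mitosis median. The difference between the lists was not tested. Within the replication list the 24 genes with an E2F-type core had a median change of -0.095 and the 11 with a window and no core one of -0.13, with all 35 negative. Of those 24, the 11 with more than 1 core had a median of -0.057. Differences between these groups of genes were not tested.

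**Figure D5:**
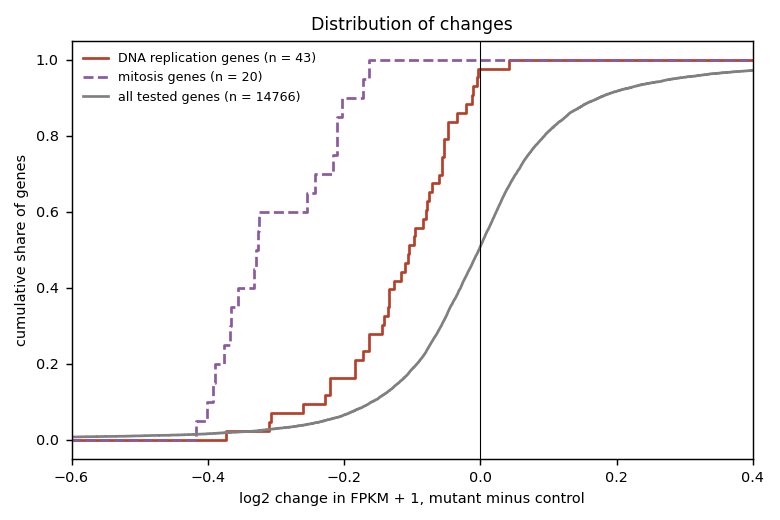
Cumulative share of genes (vertical axis) against log2 change in FPKM + 1, mutant minus control (horizontal axis, shown from -0.6 to 0.4), for the 43 replication genes, 20 mitosis genes and 14766 tested genes. The replication curve reaches 0 with 42 of 43 genes, and the median of all tested genes is -0.0020.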

How the data were processed

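RNA of 6 libraries was profiled, extracted with TRIzol and prepared with a stranded mRNA kit per the labels' protocols. Libraries were grouped by the genotype label, 3 mutant and 3 control, and numbered in accession order. The submitters' processing notes name build mm10 and the tools Cuffdiff 2.2.1, SAMtools 0.1.18, TopHat2 2.1.1 and Bowtie2 2.2.8. Annotation, filters, the strand setting and scaling between libraries were not given in the sources used here, so fragments of overlapping antisense genes may not be told apart. The authors deposited 1 FPKM value per gene symbol, per the file headers.

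No count test fits FPKM, and no counting interval can be had. Steps between low values gave a depth of roughly 8.32e+06 fragments (mutant replicate 3) to 1.37e+07 fragments (control replicate 2), as estimated here. No pair of libraries was identical (Pearson r across genes 0.986 to 0.991).

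Genes averaging 1 FPKM or more over the libraries were kept, and log2(FPKM + 1) was fitted as deposited, with no rescaling. This scale understates changes of low genes. Mutant was set against control in limma 3.58.1 (R 4.3.3, eBayes with trend, two-sided, no covariate, 4 residual degrees of freedom). P-values were adjusted by Benjamini-Hochberg over the 14766 genes tested, with calls under 0.05. The script was tested on simulated data.

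The members, lists, motifs and alternatives were chosen with earlier results of these data known. By the rule for named genes every replication gene is named, with values in every library for the 2 of smallest p in each role and for Gmnn, and other lists by their called genes or their 2 of smallest p. Promoter sequences are from RefSeq (GRCm38.p6), and gene positions from GENCODE on GRCm38, the sequence behind mm10. The alternatives were other pseudocounts, filters and scalings, other eBayes settings, library weights, sex, muscle or erythroid markers as covariates, and leaving out each library.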

Additional observations from a re-analysis of the deposited data

How the results depend on the processing

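In all 19 alternatives 0 replication genes were called, higher or lower, and the smallest adjusted p of any was 0.110. Between 34 and 42 of the tested genes of the list had negative changes, and the median change ran from -0.15 to -0.092 (-0.13 to -0.092 leaving out 1 library). It moved by more than the spread between libraries only with the muscle list as a covariate (-0.15). In the alternatives that can move it, between 13 and 22 genes had groups that did not overlap. Leaving out 1 library gave 16 to 22, and doing so can only keep or raise this count. The share of all tested genes without overlap was not computed for these alternatives. The count of all genes called, 39, was 18 with no filter, 19 without trend, 71 with library weights, 10 with sex and 5 with muscle as a covariate, and 15 to 44 leaving out 1 library, with 23 without mutant replicate 1 and 17, 15 and 18 without control replicates 1, 2 and 3. Covariates and left-out libraries leave fewer residual degrees of freedom, while no filter and library weights leave as many. The cause of the different counts was not tested. Of 812 single-gene values 41 had the opposite sign to the reported change, in 17 genes. These were Mcm6 0.0022 and Rfc2 0.011 with quantile scaling, Gmnn -0.019, Mcm6 0.0025, Rfc2 0.023 and Rpa2 0.0092 with library weights, Cdc6 0.0017, Chaf1b 0.010, Gins1 0.011, Gins2 0.075, Gmnn -0.10, Lig1 0.011, Mcm6 0.0091, Rfc2 0.057 and Rpa2 0.032 with sex as a covariate, Fen1 0.025, Gins1 0.018, Mcm6 0.00071, Mcm7 0.0027, Pola1 0.011, Rfc1 0.0027, Rfc2 0.014 and Rfc3 0.054 with the muscle covariate, and Rfc2 0.0019 with the erythroid covariate. Leaving out 1 library, changes ran from -0.050 to 0.0066 for Pole2, -0.065 to 0.028 for Rfc2, -0.18 to 0.0021 for Gins2, -0.050 to 0.12 for Gmnn, -0.12 to 0.015 for Mcm5, -0.058 to 0.068 for Rpa2, -0.13 to 0.023 for Pold2, -0.12 to 0.020 for Gins1, -0.047 to 0.015 for Mcm6, -0.087 to 0.0095 for Pola1, -0.13 to 0.066 for Cdc6 and -0.015 to 0.010 for Rfc1. No paired analysis was possible because the labels link no mutant library to a control library. The least abundant genes, Orc1, Ccne2 and Cdc6, had the widest intervals, and the part of depth in this was not tested.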
